A study of Mus musculus with 36 samples.

Results

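Accessibility at 476 ATAC-seq peaks was lower in CD4 T cells without HP1γ than in wild-type (WT) cells in each of the 3 conditions that were profiled. ATAC-seq uses a transposase that cuts open DNA, and the reads at a peak measure how open it was. The members were found on log2 counts per M reads (CPM, where M stands for mega), with the library total as the scale and a prior count of 2. A peak was a member when its highest HP1γ knockout (KO) library lay below its lowest HP1γ WT library in naive cells, in conventional T cells (Tconv) after transfer and in Tconv transferred with regulatory T cells (Treg). This held for 0.666% of 71509 peaks. The mirror rule, every KO library above every WT library in all conditions, held for 953 peaks (1.33%), which are given beside the members as a second set chosen from the same libraries. Every comparison of HP1γ KO with WT below is therefore a description of the values that chose the peaks.

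HP1γ, encoded by Cbx3, and HP1α, encoded by Cbx5, are chromodomain proteins that bind histone H3 methylated at lysine 9 and are best known as components of silent heterochromatin. HP1γ is also found along the bodies of transcribed genes. When a T cell is activated, closed regions near effector genes open and regions used in the resting state close, and Treg restrain this response.

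Groups differed in the locus, the genotype and the condition, with 3 libraries in each of 12 groups. HP1γ KO mice carried 2 Hp1g flox alleles and the Cd4-cre transgene, which is active in T cells, and their WT controls were littermates with 2 Hp1g flox alleles and no Cre, so that only KO cells carried the transgene. HP1α KO mice were Hp1a-/-, from a floxed allele excised in all tissues with CMV-cre, and their WT controls were Hp1a+/+ littermates. All lines were kept on a mixed 129/Sv and C57BL/6 background, and the study used sex-matched littermates between 6 and 12 weeks old. Naive cells, CD4+CD62L+CD44low, came from the spleen and were not transferred. The other cells were injected, alone (Tconv) or with ex vivo expanded WT Treg (Tconv + Treg), into lethally irradiated C57BL/6 recipients (C57BL/6 J, or B6 carrying CD45.1, in the study's methods) of C57BL/6 and B6D2F1 bone marrow, and Tconv carrying TCR Vβ6 and negative for the Thy1.1 mark of the transferred Treg were sorted from the spleen 3 weeks later. The labels do not say whether libraries of a group came from separate mice, so p-values measure the spread between these libraries only.

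HP1γ libraries held 19.4 to 90.3 M reads in peaks and HP1α libraries 1.49 to 96.8 M. The study left out WT replicate 3 and KO replicates 2 and 3 of HP1α Tconv + Treg for low quality, so that tests there compared 1 KO library of 50.7 M reads with WT libraries of 12.7 and 1.49 M. All 8 CD4 T cell markers had a peak at the transcription start site (TSS), as did 1 of 2 CD8 T cell markers (Cd8b1), 1 of 4 NK cell markers (Klre1), 2 of 8 B cell markers, 4 of 7 myeloid markers (among them Spi1 and Mpo) and 3 of 4 erythroid markers. No TSS peak was found at Cd8a, Ncr1, Lyz2 and Csf1r. In the HP1γ libraries with Treg the summed level of the myeloid markers was 37.7 to 54.8 CPM in KO and 41.4 to 48.8 CPM in WT, and that of Cd8b1 was 3.42 to 5.1 CPM and 4.03 to 6.84 CPM. The sums of the Treg and B cell markers did not overlap between these groups and are given below. The peak at the start of Cbx3 differed by 0.02, 0.02 and 0.11 on the log2 scale between HP1γ KO and WT in naive cells, Tconv and Tconv + Treg, so that it does not mark the deletion. The peak over Cd4, whose regulatory sequence drives the Cre, was higher in KO by 2.77, 2.55 and 2.60 and belongs to the raised set. Neither is a member.

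The 4 members with the largest WT minus KO difference, averaged over conditions, are shown with the 200 bases at their centre, since the results return to them. They are read from GRCm39 on the plus strand, 5′ to 3′, and capitals mark matches to any of 11 short motifs (ETS, RUNX, TCF/LEF, GATA, FOX, AP-1, ISRE, SP/KLF GC box, CCAAT box, NFAT and E-box) on either strand.
Car9 peak, chr4:43504295-43504494: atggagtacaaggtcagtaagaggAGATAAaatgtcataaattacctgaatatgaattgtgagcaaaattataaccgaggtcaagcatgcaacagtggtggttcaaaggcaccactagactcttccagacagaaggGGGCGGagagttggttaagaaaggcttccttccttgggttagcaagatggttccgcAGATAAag
Gm51866 peak in Cox10, chr11:63928335-63928534: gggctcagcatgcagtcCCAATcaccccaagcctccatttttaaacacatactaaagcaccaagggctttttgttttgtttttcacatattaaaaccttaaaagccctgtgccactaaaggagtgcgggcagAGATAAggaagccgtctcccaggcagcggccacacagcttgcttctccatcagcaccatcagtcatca
Bbs9 peak, chr9:22568475-22568674: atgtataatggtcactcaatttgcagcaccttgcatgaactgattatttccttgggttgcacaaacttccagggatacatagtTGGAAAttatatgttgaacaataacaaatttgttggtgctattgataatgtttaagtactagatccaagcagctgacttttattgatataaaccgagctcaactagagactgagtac
Gm72089 peak in Spred2, chr11:19911325-19911524: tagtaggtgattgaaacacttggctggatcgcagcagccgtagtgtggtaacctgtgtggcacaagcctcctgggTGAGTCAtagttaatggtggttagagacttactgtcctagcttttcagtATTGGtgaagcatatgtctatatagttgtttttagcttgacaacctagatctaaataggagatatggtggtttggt
The Car9 and Gm51866 sequences hold the GATA motif AGATAA, at 2 places in the former. The Bbs9 sequence holds the NFAT motif TGGAAA, and the Gm72089 sequence the AP-1 motif TGANTCA.

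The largest averaged difference, 1.49, was at the peak on chr4:43503961-43504830, over an exon of the lncRNA Gm12454 and 2136 bp from the nearest TSS, that of Car9, which encodes a carbonic anhydrase induced by hypoxia. Its log2 CPM in naive cells was 0.21, 0.15 and 0.00 in WT and -0.48, -0.10 and -0.55 in KO. In Tconv it was 3.55, 3.57 and 2.77 in WT and 2.05, 1.88 and 1.58 in KO. With Treg it was 2.04, 3.41 and 2.74 in WT and -0.35, 0.96 and 0.07 in KO. The level was low in naive cells of both genotypes and higher after transfer, and the KO libraries stayed below the WT libraries throughout, by 0.50, 1.46 and 2.51 in the means.

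The next was a peak within Cox10 and within 1 kb of the start of the lncRNA Gm51866 (chr11:63927791-63929080). Cox10 makes heme A for cytochrome c oxidase. In naive cells it had 2.80, 2.75 and 2.89 in WT and 2.52, 2.61 and 2.24 in KO. In Tconv these levels were 4.75, 4.53 and 3.75 against 3.49, 2.78 and 2.45, and with Treg 3.06, 4.58 and 3.28 against -0.41, 2.15 and 1.32. KO replicate 1 with Treg was the lowest of all 18 libraries at this peak.

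A peak within 1 kb of a TSS of Bbs9, a subunit of the BBSome of primary cilia (chr9:22568131-22569020), took the other course and was most open in naive cells. Its naive levels were 3.28, 3.35 and 3.21 in WT and 2.76, 2.95 and 2.61 in KO. Its Tconv levels were 3.07, 2.79 and 1.96 against 1.92, 0.60 and 1.08, and with Treg 1.60, 2.53 and 2.19 against -1.07, 0.41 and -0.33. In both genotypes the levels with Treg were the lowest on average.

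The peak in an intron of Spred2, an inhibitor of Ras signalling (chr11:19911281-19911570), was at -1.40, -1.41 and -1.43 in naive WT and -1.58, -2.92 and -1.89 in naive KO. In Tconv it was at 1.55, 1.78 and 0.26 in WT and -0.02, -0.62 and -1.46 in KO, and with Treg at 0.92, 1.88 and 0.51 against -0.18, -0.73 and -0.24. As at Car9, the levels were higher after transfer than in naive cells in both genotypes. The others of the 10 largest differences, from 1.25 to 1.35, lay near Gm14140, a processed pseudogene, Zmiz1os1, Gm14811 on chromosome X, a second Bbs9 site, Gm63215 in Spef2 and Gm63457 in Vwa8.

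**Figure D1:**
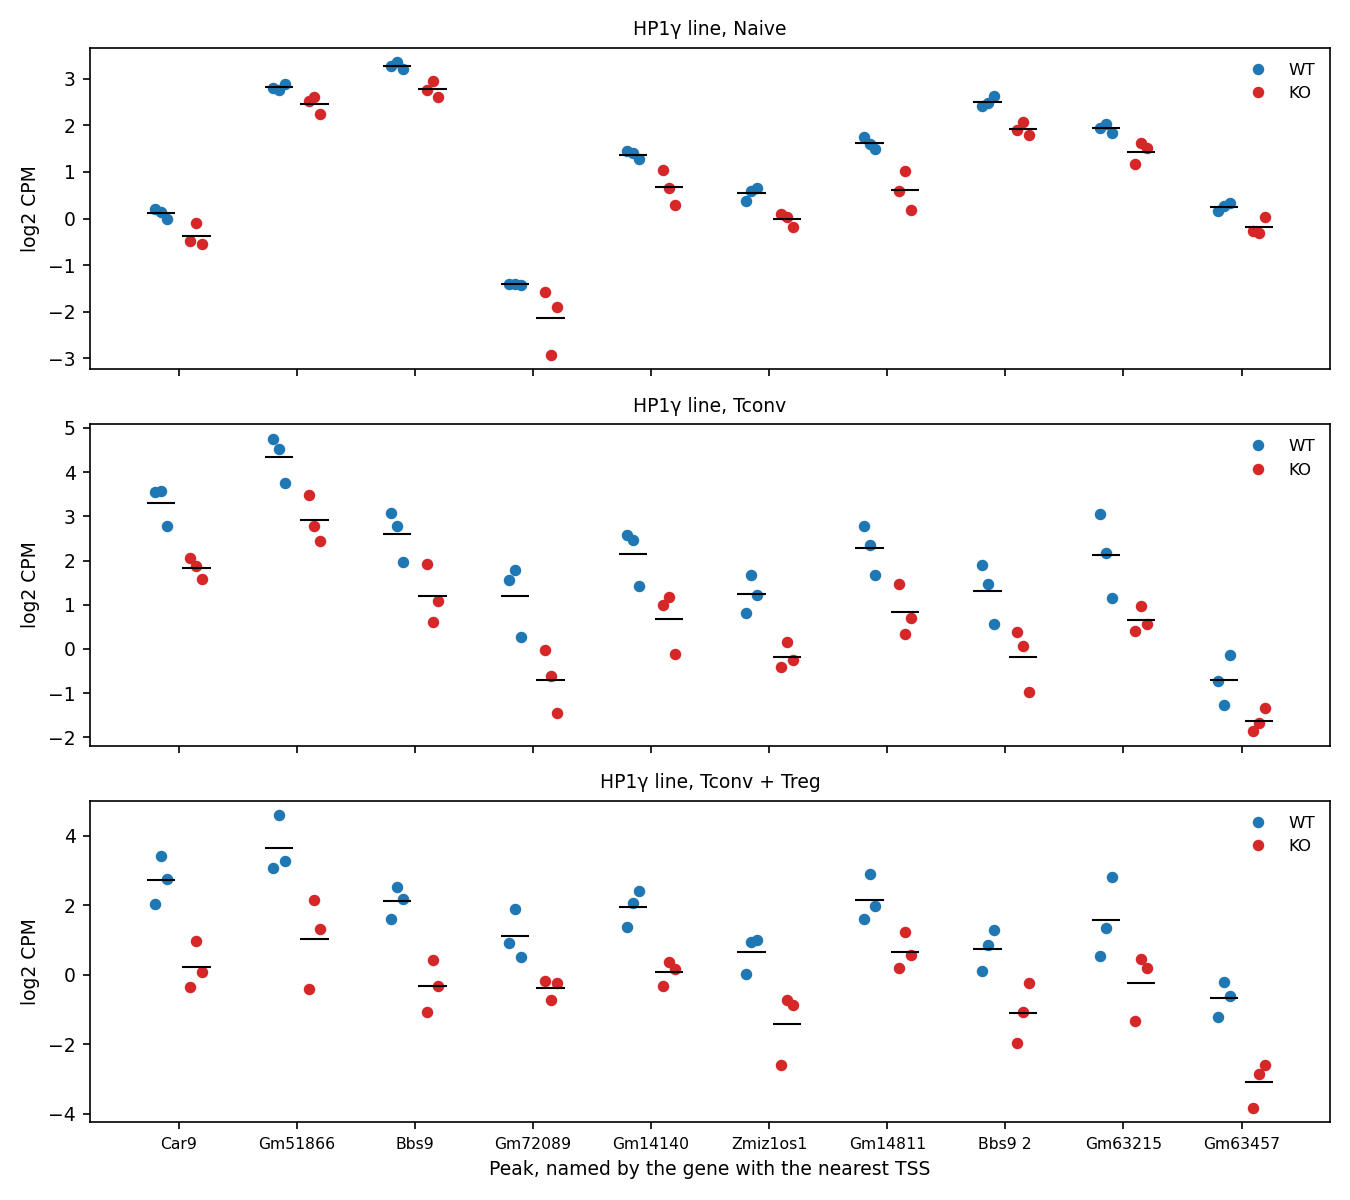
Log2 CPM (vertical axis) of the 10 members with the largest averaged WT minus KO difference in the 18 HP1γ libraries, 1 panel per condition, with WT in blue, KO in red and the group mean as a bar. All KO points lie below all WT points of the same peak, as the rule requires, and the distance between the bars is smallest in naive cells, for Car9 0.50 against 1.46 in Tconv and 2.51 with Treg.

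The 3 members with the highest WT levels differed little between genotypes. A broad peak over Id2, which encodes an inhibitor of E protein transcription factors (chr12:25141851-25151260, nearest TSS that of Gm59395), had the highest mean WT level, 7.47. Its naive levels were 7.22, 7.23 and 7.21 in WT and 7.15, 7.18 and 7.19 in KO, and its averaged difference was 0.12. Peaks at Ppp6r1, a subunit of protein phosphatase 6, and near Gm74511 and Sfi1 had WT levels of 6.71 and 6.57 and averaged differences of 0.12 and 0.21. At Id2 the naive libraries of the genotypes stood apart by a narrow margin.

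Over the 476 peaks, the KO minus WT difference in mean log2 CPM had a median of -0.28 in naive cells (quartiles -0.39 and -0.21), -0.55 in Tconv (-0.78 and -0.38) and -0.96 with Treg (-1.29 and -0.65). The medians over all peaks were 0.00, 0.09 and -0.14, and over the raised set 0.90, 1.06 and 1.10. The difference grew from naive cells to Tconv and again to Tconv + Treg at 358 members (75.2%). It was largest with Treg at 410 (86.1%), in Tconv at 56 and in naive cells at 10. A difference over 1 was found with Treg at 228 members (47.9%), in Tconv at 55 and in naive cells at 2. With the edgeR quasi-likelihood test, adjusted over all peaks with a threshold of 0.05 and an absolute log2 fold change over 1, 0 members were called lower in naive cells, 75 in Tconv without Treg and 172 in Tconv + Treg, where 0.00699%, 1.66% and 5.38% of all peaks were called lower. Nothing is read from these shares, since the rule used the same contrasts.

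The reads in the 476 peaks made up a small share of each HP1γ WT library, 0.701 to 0.723% in naive cells, 0.756 to 0.856% in Tconv and 0.644 to 0.787% with Treg. In KO the shares were 0.602 to 0.614%, 0.544 to 0.624% and 0.390 to 0.474%. The KO shares in Tconv and in naive cells overlapped.

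**Figure D2:**
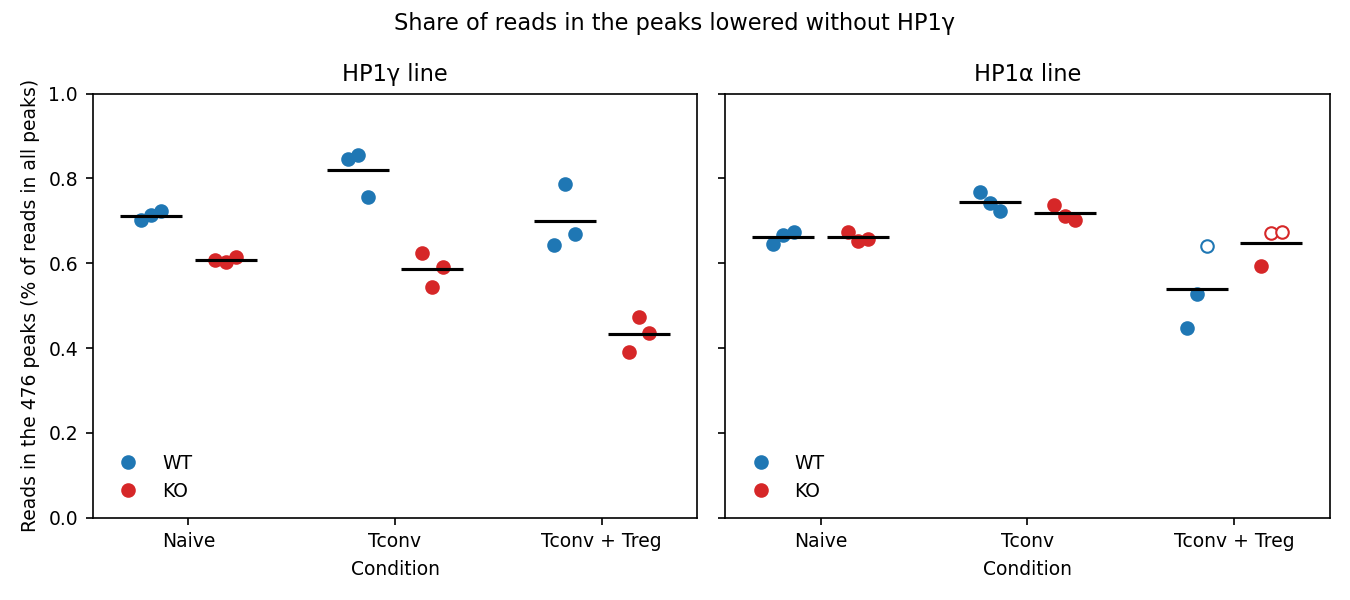
Share of the reads of each library that fell in the 476 peaks (% of reads in all peaks, vertical axis from 0) by condition for the HP1γ line, which chose the peaks, and the HP1α line, which did not. Points are libraries (WT blue, KO red), bars are means over 3 libraries and open circles are the libraries that the study left out. HP1γ KO libraries fall to 0.390 to 0.474% with Treg, and HP1α WT and KO libraries overlap in naive cells and Tconv. With Treg the HP1α shares, 0.447 to 0.641% in WT and 0.594 to 0.674% in KO, overlap only through the excluded WT library.

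The margin was small at many members. The smallest gap between the lowest WT and the highest KO library in any condition had a median of 0.06 and reached 0.47. Just inside were peaks in introns of Enthd1 (near Gm19141), Camk4 (near 2310026I22Rik) and Sorcs2, with gaps of 9e-06, 9.3e-05 and 0.00014 in Tconv. Just outside were a peak near Gm61001 and Ets2 with a gap of -0.00015 in naive cells and Garnl3 with -0.00068 in Tconv. With library totals replaced by TMM factors the rule gave 389 peaks, of which 308 were members, and with a correction for GC content 735, of which 294 were members. The rule held under all 4 scalings (library total, TMM, DESeq2 size factors and GC correction) at 249 members, among which were all 10 with the largest differences. All 476 passed the filter on low counts in both lines.

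Members were well-covered, wide peaks. The mean log2 CPM in the HP1γ WT libraries had a median of 3.08 (-1.49 to 7.47) against 1.29 over all peaks and 0.62 over the raised set, and since these libraries chose the peaks this is a description too. With all peaks divided into 5 equal bins by this level, members made up, from the lowest bin to the highest, 0.042%, 0.154%, 0.594%, 1.55% and 0.993%. The raised set ran the other way, with 327 of its 953 peaks in the lowest bin and 114 in the highest. Median width was 1210 bp against 750 bp over all peaks, and GC content 47.6% against 48.0%.

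In GENCODE vM39 on GRCm39, 219 members (46.0%) had their centre in an intron, 151 (31.7%) lay within 1 kb of a TSS, 88 (18.5%) between genes and 18 (3.78%) in an exon. All peaks divided into 42.9%, 34.0%, 17.4% and 5.62%. A TSS of a protein-coding gene lay inside 53 members (11.1%), compared with 19.1% of all peaks and 20.4% of the raised set. The nearest TSS was that of a lncRNA at 211 members (44.3%), against 35.7% of all peaks. Only 8.19% of members were over 100 kb from any coding TSS, near the 7.49% of all peaks, whereas 19.3% of the raised set were.

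The difference between KO and WT was smaller at starts than elsewhere. At the 53 members with a coding TSS inside, the median KO minus WT differences were -0.22, -0.37 and -0.59 in naive cells, Tconv and Tconv + Treg. At the 219 members in introns they were -0.31, -0.58 and -1.03. The WT level moved with this, with a median of 4.58 at the former and 2.77 at the latter, and its part was not tested.

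**Figure D3:**
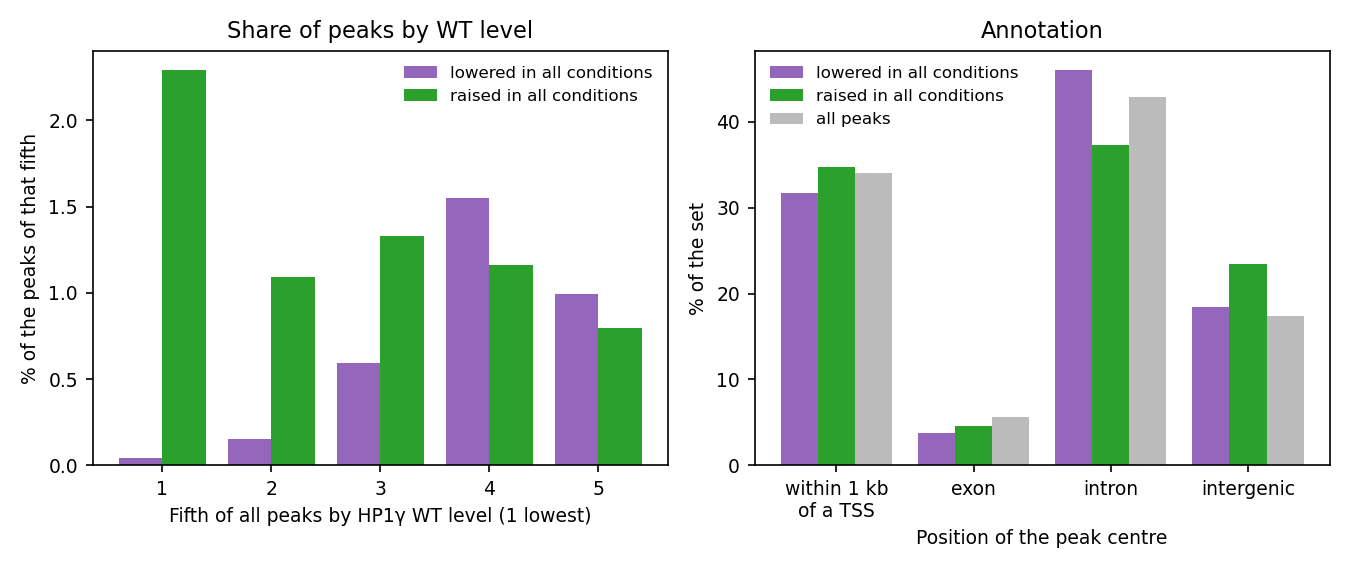
Left, share of the peaks in each of 5 bins by HP1γ WT level (1 is the lowest) that were lowered (purple) or raised (green) in all conditions, in %. Right, share of each set, in %, by position of the peak centre, with all peaks in grey. Lowered peaks are most frequent in bin 4 (1.55%) and raised peaks in the lowest, and 46.0% of lowered peaks lie in introns.

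Of 17 motifs searched on both strands in the central 300 bases, the GATA motif AGATAA was found in 93 members (19.5%), in 13.6% of all peaks and in 11.9% of the raised set. Away from starts, the shares were 19.7% of members and 15.7% of all peaks. The GC box GGGCGG was found in 9.45% of members and 16.5% of all peaks, but away from starts in 5.54% and 7.26%. The NFAT motif TGGAAA was found in 18.5% against 23.7%, and in 32.7% of the raised set. The AP-1 motif TGANTCA was found in 10.7% against 13.0%, and the CTCF core AGGGGGC in 3.99% against 7.57%. The CCAAT box, at 29.8% against 29.1%, and the RUNX motif TGTGGTT, at 14.5% against 12.9%, differed little. A match says only that these letters are in the window, and the ETS, GATA and other motifs can overlap each other.

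By the nearest TSS the members fell to 424 genes, and by the nearest protein-coding TSS to 380, with the same gene by both at 217 members. With the second assignment, 18 genes had 3 members or more. Rap1b, a small GTPase of integrin-dependent adhesion, had 6 of its 42 peaks among the members, all but 1 of them between genes or near lncRNAs. Arl4c had 5 of 31, and Vrk1 (a nuclear kinase), Bbs9 and Runx1 had 4 each, of 39, 16 and 63. With 3 each were Galnt10, Ankrd44, Prkce, Ptk2b, Nck2, Ranbp9, Thy1, St8sia1, Wwox, Camk4, Prex1, Macf1 and Jak1. No peak of these 18 genes was in the raised set apart from 1 at Macf1.

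Many members lay close together. In 48 runs of at least 3 members with gaps under 1 Mb there were 195 members (41.0%). The longest held 8 members each, at Inpp5d, Dgkd, Spp2 and Arl4c (chr1:87567481-88622630, 8 of 90 peaks), and from Ncoa3 to Nfatc2 (chr2:165802591-168439010, 8 of 265). At Nup107 and Rap1b 7 of 43 peaks were members (chr10:117639031-117828880), over Klf13 and Trpm1 6 of 31 (chr7:63545971-63701190), and from Asxl2 to Dnmt3a 5 of 25 (chr12:3503201-3919020). Reads were counted for each peak they overlapped, so neighbouring peaks can share reads. The raised set and other peaks were not grouped into runs, so the 41.0% has no reference value. Chromosome 7 had the most members, 47 (1.07% of its peaks), and chromosome 19 only 5 (0.236%).

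At the 4 Bbs9 sites the KO minus WT difference with Treg was -2.44, -1.83, -1.82 and -0.79, and in naive cells -0.50, -0.60, -0.43 and -0.19. At the 6 sites assigned to Rap1b it ran from -0.70 to -1.76 with Treg. Of the 5 at Arl4c, 3 lay within the gene, with -1.77, -1.39 and -1.24. The peak at a start of Vrk1 on chr12:105991591-105992090 differed by -0.86, -1.09 and -1.09.

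Among genes of T cell receptor signalling, members were an intronic peak of Nfatc2, a transcription factor activated by calcineurin (chr2:168436311-168439010), and one of Themis, an adaptor of the receptor. They were 2 of the 263 peaks of that list by nearest TSS (0.76%). At Nfatc2 the naive levels were 3.33, 3.44 and 3.50 in WT and 3.21, 2.98 and 2.90 in KO. In Tconv they were 5.53, 5.95 and 5.64 against 4.87, 4.95 and 5.01, and with Treg 4.72, 5.51 and 5.04 against 2.61, 4.03 and 4.03. The levels were higher after transfer in both genotypes, and the distance between the means was widest with Treg, at 1.53.

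Of cytokine receptor and JAK-STAT genes, 3 of 183 peaks (1.64%) were members, at Ifngr2, a chain of the receptor of interferon-γ, and at 2 sites of Jak1, the kinase coupled to it. The Ifngr2 peak (chr16:91358801-91359509) had 0.81, 0.61 and 0.97 in naive WT and 0.57, 0.28 and 0.55 in naive KO. In Tconv it had 3.14, 3.19 and 2.68 against 2.16, 2.02 and 1.92, and with Treg 2.72, 3.45 and 2.97 against 1.04, 1.52 and 1.43. It was more open after transfer in both genotypes, and KO libraries reached lower levels. Of effector cytokines and lineage factors, 3 of 117 peaks (2.56%) were members, 2 in Rora, an orphan nuclear receptor of Th17 and innate-like cells, and 1 at a start of Runx1.

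In the list of HP1 proteins and H3K9 methylation, no HP1 or H3K9 methylation gene had a member. Both members (of 61 peaks, 3.28%) were at Dnmt3a, which methylates DNA and was also on the list. The member in an intron of Dnmt3a at chr12:3918381-3919020 differed by an average of 0.98. Genes of the Zfp family had 2 of 585 peaks (0.342%), among them Zfp683, which encodes Hobit, a factor of tissue-resident T cells. No member was nearest to a gene of the naive state and lymph node homing (148 peaks), inhibitory receptors and exhaustion (142), the nuclear envelope (80), transport from the endoplasmic reticulum to the Golgi (54), adhesion (117) or the cell cycle (76). In the list of inhibitory receptors 11 peaks (7.75%) were in the raised set, against 1.33% of all peaks. By the nearest coding TSS, members were 8 of 553 peaks of the effector cytokine and lineage factor list (1.45%), with Runx3 added to Rora and Runx1, and 4 of 425 of the cytokine receptor list (0.941%). They were 5 of 593 of the T cell receptor list (0.843%), 3 of 629 of the naive list (0.477%), at Foxo1, Il7r and Klf3, and 1 of 292 of adhesion (0.342%), at Cd44. In the Zfp family they were 4 of 1230 (0.325%), in the HP1 and H3K9 methylation list 2 of 104 (1.92%, both at Dnmt3a), and for inhibitory receptors still 0 of 266. Members were 0.666% of all peaks, the lists are small, and these counts are descriptions.

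The HP1α libraries took no part in the choice of the peaks. With edgeR, 0 members were called in naive cells and 0 in Tconv, where 0.00559% and 0.021% of all peaks were called, and 6 and 40 members had an unadjusted p under 0.05, as had 835 and 3450 of the 71509 peaks tested. The median log2 fold change between HP1α KO and WT was -0.01 in naive cells, with 46.6% of members above 0, and -0.02 in Tconv, with 45.0% above 0. Over all peaks the medians were 0.00 and -0.03, with 50.3% and 45.6% above 0. In naive cells every KO library lay below every WT library at 18 members (3.78%, against 3.39% of all peaks) and above at 9 (1.89%, against 2.95%). In Tconv this was so at 39 below (8.19%, against 4.84%) and 17 above (3.57%, against 2.71%).

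The members nearest to a call in HP1α Tconv were Gm10505, whose nearest coding TSS is that of Lemd2, and Sox5. At Gm10505 (chr17:27543831-27544450) the Tconv levels were 3.42, 3.27 and 3.37 in WT and 2.18, 2.36 and 2.81 in KO. The groups did not overlap, with a log2 fold change of -0.96 (SE 0.18) and an adjusted p of 0.109 (edgeR). In the HP1γ line the same peak had 3.16, 3.72 and 3.78 in WT Tconv and 2.27, 2.67 and 2.50 in KO. Sox5 had -0.80 (SE 0.21, edgeR adjusted p = 0.361), and on the higher side F730311O21Rik, near Nuak2, had 0.54 (SE 0.15, edgeR adjusted p = 0.455). In naive cells the smallest p on the lower side belonged to Gm13481 (-0.60) and Gm14811 (-0.81), and on the higher side to B4galnt2 (0.53), each with an edgeR adjusted p of 1. At Gm14811 the naive KO levels of both lines were below all WT levels of the same line, 0.66, 0.26 and 0.20 against 1.45, 1.17 and 0.87 for HP1α and 0.60, 1.03 and 0.18 against 1.75, 1.60 and 1.49 for HP1γ.

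With Treg most members were above 0 in the HP1α line. The median log2 fold change between HP1α KO and WT was 0.42 and 77.3% of members were above 0. Over all peaks the median was -0.11 and 44.1% were above 0. The raised set moved the other way, with a median of -0.89. Its median level in HP1γ WT was 0.62, against 3.08 at members and 1.29 over all peaks, and the part of the level was not tested. The median over the members lay between 0.33 and 0.53 under every alternative setting that gave a fit. Over all 6 libraries, the excluded ones included, every KO library lay above every WT library at 69 members (14.5%, against 6.72% of all peaks) and below at 2 (0.42%, against 4.75%). The test rests on 1 KO and 2 WT libraries, and edgeR called 5 members, all higher (1.05%), where 1.63% of all peaks were called in either direction, 156 of them higher and 1012 lower. None of the 5 was called with all 18 libraries, or when WT replicate 1 or WT replicate 2 was left out, or with a correction for GC content.

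The 5 calls were Ccr2, a chemokine receptor of migrating effector cells, Gm40773 (near Rap1b), Gm20033 (near Klf3), Gm7726 (near Slco3a1) and Gm33843 (near Btg1). At Ccr2 (chr9:123899931-123904410) the kept libraries held 1550 reads in KO and 135 and 14 in WT, for a log2 CPM of 4.94 against 3.42 and 3.24. The excluded KO libraries were at 4.44 and 4.57 and the excluded WT library at 4.45, so that KO and WT overlapped narrowly over all 6. Its log2 fold change was 1.58 (SE 0.39, edgeR adjusted p = 0.0472). In the HP1γ line, Ccr2 was lower in KO by 0.21, 0.51 and 1.47 from naive cells to Tconv + Treg. At Gm40773 (chr10:117699721-117701670) the level was 4.79 in the kept KO library and 3.41 and 2.76 in WT, for a fold change of 1.49 (SE 0.35, edgeR adjusted p = 0.0382), and the excluded libraries, at 3.65 and 4.14 in KO and 2.97 in WT, kept the groups apart. Gm20033 and Gm7726 had fold changes of 1.71 and 1.93 (edgeR adjusted p = 0.0474 and 0.0479). At Gm33843, with 3 and 2 reads in the WT libraries and 213 in KO, the log2 CPM was -1.86 and 0.47 in the kept WT libraries and 2.08 in the kept KO library. The excluded WT library, at 2.85, lay above all KO libraries, the excluded ones being at 2.53 and 1.59, and the fold change is not given.

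Signal at the starts of Treg genes also differed between the groups with Treg. All 4 Treg markers on the list (Foxp3, Ikzf2, Il2ra and Ctla4) had a TSS peak, and none was at 0 in any library. Their summed level with Treg was 316 to 348 CPM in HP1γ KO and 247 to 265 CPM in HP1γ WT, and 268 to 360 CPM in HP1α WT and 251 to 275 CPM in HP1α KO. The HP1γ groups did not overlap and the HP1α groups did. The markers differed among themselves, with mean log2 CPM in HP1γ KO and WT with Treg of 7.28 and 6.48 at Ctla4, 6.11 and 5.39 at Ikzf2, 6.51 and 6.65 at Foxp3, and 3.99 and 4.69 at Il2ra. In Tconv without Treg the sums overlapped between genotypes, at 244 to 324 CPM in KO and 225 to 276 CPM in WT for HP1γ, and likewise in naive cells, at 252 to 271 and 235 to 254 CPM. The sort gate excluded Thy1.1-positive cells, the mark of the transferred Treg. For B cells, 2 of 8 markers had a TSS peak, with 15.3 to 18.8 CPM in HP1γ KO and 9.66 to 14.5 CPM in HP1γ WT with Treg, and 11.3 to 26.5 CPM in HP1α KO and 21.9 to 30.3 CPM in HP1α WT. The CD4 T cell markers moved with the HP1α difference, with a summed level over the 8 markers under Treg of 897 to 1040 CPM in KO and 762 to 898 CPM in WT, which overlapped narrowly, the excluded libraries included. In the libraries kept for the test it was 1040 CPM in KO and 898 and 762 CPM in WT, where the B cell sum was 11.3 against 21.9 and 26.9 CPM and the Treg sum 275 against 360 and 280 CPM. Mean log2 CPM over all 3 libraries of each group was 5.86 in KO and 5.17 in WT at Cd3e, and 6.45 and 5.85 at Cd3d, which encode chains of the T cell receptor complex. The part of these signals in the result was not tested, and fewer cells of a type and less signal per cell cannot be told apart.

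**Figure D4:**
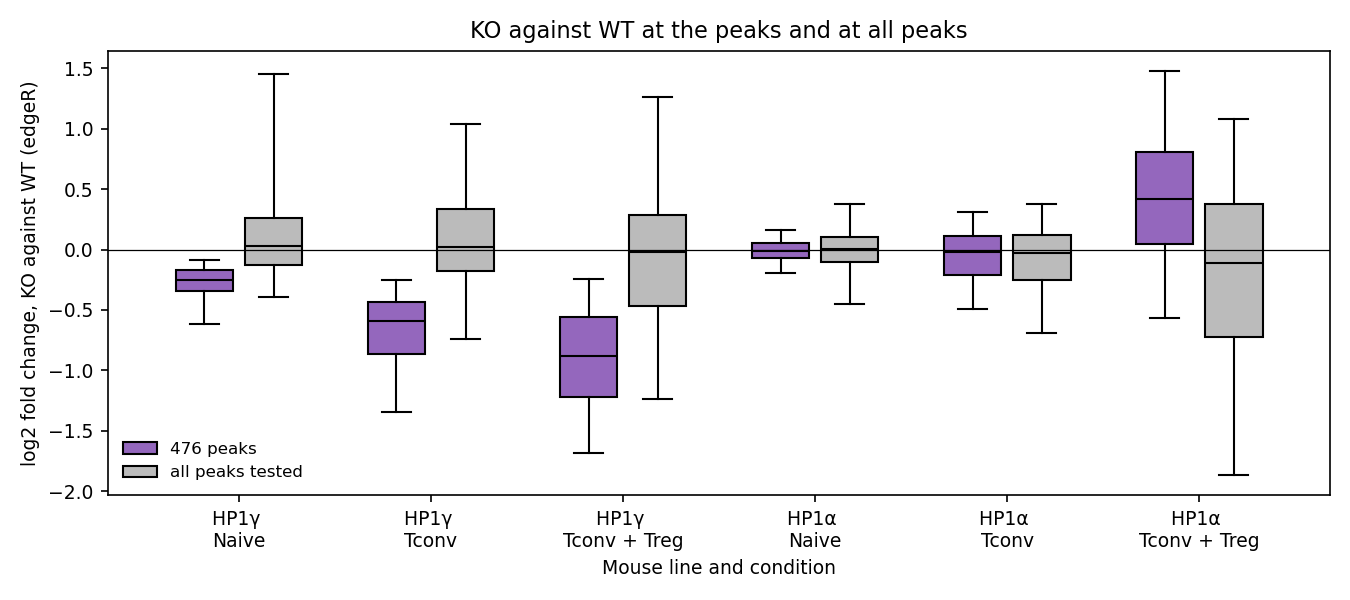
Log2 fold change between KO and WT from edgeR (vertical axis) in the 2 lines and 3 conditions, at the 476 peaks (purple) and at all peaks tested (grey). Boxes are quartiles with the median, and whiskers run from the 5th to the 95th percentile. The HP1γ boxes at the peaks lie below 0 as the rule requires, the HP1α boxes sit at 0 in naive cells and Tconv (medians -0.01 and -0.02), and with Treg the HP1α median is 0.42.

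Transfer into the grafted host, the step from naive cells to Tconv, went with a gain at some members and a loss at others. In HP1α WT cells, which the rule did not use, edgeR called 67 members higher in Tconv and 60 lower, 14.1% and 12.6%, where 24.9% and 17.5% of all peaks were called. The median log2 fold change of members was -0.08. In HP1α KO cells 56 were called higher and 56 lower (23.5% and 19% of all peaks), with a median of -0.11. In HP1γ WT cells the counts were 88 and 48 (24.5% and 22% of all peaks) with a median of 0.13, and in HP1γ KO cells 53 and 110 (22.4% and 20.6%) with a median of -0.17. The HP1γ libraries chose the members and KO was required to be lower in Tconv, so that a shift between their genotypes is in part set by the rule.

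The split between opened and closed members depended on the scale. With a GC correction the counts were 45 higher and 97 lower in HP1α WT, 46 and 82 in HP1α KO and 67 and 70 in HP1γ WT, and with library size alone 81 and 41 in HP1α WT. Over all peaks the median in HP1α WT went from -0.03 to -0.23 with the GC correction and to 0.17 with library size. The raised set stood apart from the members, with a median of 1.73 in HP1α WT and 531 of its 953 peaks called higher.

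Among the opened members, Ifngr2 rose from 0.42, 0.19 and -0.16 in HP1α WT naive cells to 3.03, 2.98 and 3.02 in Tconv, for a log2 fold change of 2.73 (SE 0.22, edgeR adjusted p = 8.29e-09). The peak between Tmem247 and its neighbours, 35686 bp from the nearest TSS (chr17:87187341-87189090), rose from 1.01, 1.25 and 1.40 to 4.13, 4.18 and 3.71, a fold change of 2.66 (SE 0.17, edgeR adjusted p = 8.14e-10). Neither overlapped between the conditions. Car9 rose by 3.04 (SE 0.28, edgeR adjusted p = 4.59e-08) and Nfatc2 by 1.81 (SE 0.17, edgeR adjusted p = 1.02e-07). In HP1α KO, Hapstr1, a regulator of the stress response, rose by 2.75 (edgeR adjusted p = 1.55e-09).

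Among the closed members was a peak in an intron of Bcl2, the survival factor of resting lymphocytes (chr1:106476401-106477660, near Mir3473f). It was at 3.82, 4.11 and 4.02 in HP1α WT naive cells and 1.93, 2.47 and 2.24 in Tconv, with a log2 fold change of -2.10 (SE 0.16, edgeR adjusted p = 5.08e-09). A peak near Irgc fell from 5.48, 5.62 and 5.64 to 3.94, 4.02 and 4.23 (-1.80, SE 0.12, edgeR adjusted p = 2.23e-09). In HP1α KO a peak in Enthd1, near Gm19141, fell by 2.43 (edgeR adjusted p = 1.39e-09). In HP1γ WT the changes with the smallest p were rises at Gm39114, near B4galnt4 (2.07), and Gm54250, near Coa7 (3.25), and falls at Gm58593, near Smad7 (-2.34), and Gm6236, near Pag1 (-3.36), with edgeR adjusted p from 7.38e-12 to 8.31e-11 for the last 3 and 6.37e-12 for the first. In HP1γ KO the smallest p belonged to Gm39114 again (1.91), Kcnip1 (2.52), Gm58593 (-2.60) and Gm8601, near Btg1 (-3.05).

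The HP1γ KO minus WT difference was of like size at members that gained and lost signal after transfer in HP1α WT. At the 67 members called higher in HP1α WT Tconv the median KO minus WT differences were -0.32, -0.65 and -1.04 in naive cells, Tconv and Tconv + Treg. At the 60 called lower they were -0.29, -0.57 and -1.19, and at the 349 not called -0.27, -0.53 and -0.87.

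In the HP1α line, which the rule did not use, most members were lower with Treg than without. In HP1α WT, edgeR called 85 members lower in Tconv + Treg than in Tconv and 0 higher, where 1.84% and 4.92% of all peaks were called lower and higher. The median was -0.79, against 0.10 over all peaks, and 91.2% of members were below 0, against 45.1%. In HP1α KO it called 8 lower and 0 higher (0.284% and 0.264% of all peaks), with a median of -0.30 and 83.0% below 0. The HP1α KO arm with Treg is 1 library, assumed to vary like the other groups, and 0 members were called when only the groups compared were fitted. In HP1γ WT it called 0 in either direction (0.0699% and 0.0671% of all peaks). There, 214 members and 14522 of the 71508 peaks had an unadjusted p under 0.05, 7 members and 69 peaks were lower at an adjusted p under 0.05 with any fold, 4 members and 2329 peaks were called by DESeq2, and 3 members and 521 peaks with the replicate number as a block. The median was -0.35 and 93.5% were below 0. In HP1γ KO it called 60 lower and 0 higher (2.06% and 6.1%), with a median of -0.55 and 95.6% below 0. Cell type markers moved with Treg in the HP1α line too. In HP1α WT the CD4 T cell sum was 955 to 1100 CPM without and 762 to 898 CPM with Treg, the B cell sum 9.09 to 11.6 and 21.9 to 30.3 CPM, and the Treg sum 210 to 264 and 268 to 360 CPM, none of which overlapped. In HP1α KO the CD4 T cell sum was 1070 to 1130 and 897 to 1040 CPM, without overlap, and the B cell sum, 8.91 to 14.2 and 11.3 to 26.5 CPM, and the Treg sum, 249 to 293 and 251 to 275 CPM, overlapped. These ranges include the excluded libraries, and the part of the markers in the members' fall was not tested. The raised set, at lower levels in HP1γ WT, moved the other way, with a median of 1.23 in HP1α WT and 0.36 in HP1α KO. The part of the peak level was not tested either. The HP1γ libraries chose the members, and KO with Treg was required to be low, so that the HP1γ values are a description. The medians in HP1α WT and KO were below 0 under every alternative that gave a fit, and the comparison of HP1α WT with and without Treg shares its WT libraries with that of HP1α KO and WT with Treg.

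The 85 calls in HP1α WT depended on single libraries. At all 85, WT replicate 1 with Treg lay below every WT Tconv library, at 77 replicate 2 did, and at 62 the excluded replicate 3. Without replicate 1 there were 0 calls, without replicate 2 there were 62, and without WT Tconv replicate 1 there were 25. A GC correction left 24 calls and log2 depth as a covariate 33. At 10 of the 85, replicate 2 held at most 3 reads. The median over members stayed between -0.94 and -0.69.

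At Nfatc2 the HP1α WT levels were 5.50, 5.27 and 5.25 in Tconv and 2.87, 4.02 and, in the excluded library, 4.26 with Treg. This was the member with the smallest p, with a log2 fold change of -2.32 (SE 0.35, edgeR adjusted p = 0.000761). In HP1α KO its levels were 5.31, 5.17 and 5.07 without and 4.24, 4.57 and 4.79 with Treg, a fold change of -0.98 (SE 0.24, edgeR adjusted p = 0.0805). In HP1γ WT it changed by -0.73 (SE 0.22, edgeR adjusted p = 0.115) and in HP1γ KO by -1.28 (SE 0.25, edgeR adjusted p = 0.00264). In all 4 genotypes the fitted level with Treg was below that without, and whether the size differed between them was not tested.

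A peak near Gm53358 and Fxyd3 (chr7:30785341-30787550) fell by 2.12 in HP1α WT (SE 0.36, edgeR adjusted p = 0.00192), and Ccr2 by 2.00 (SE 0.34, edgeR adjusted p = 0.00198). Ifngr2 fell by 1.67 (edgeR adjusted p = 0.0263), the Gm51866 peak in Cox10 by 2.31 (edgeR adjusted p = 0.0107) and the Bbs9 peak described first by 2.06 (edgeR adjusted p = 0.033). Of the 8 calls in HP1α KO, the smallest p belonged to Tmem247 (-1.95, SE 0.23, edgeR adjusted p = 0.000837) and Extl3, a glycosyltransferase of heparan sulfate (-1.44, SE 0.24, edgeR adjusted p = 0.0117). They included Gm51866 (-1.58, edgeR adjusted p = 0.0274) and Dnmt3a (-1.61, edgeR adjusted p = 0.0222). At Tmem247 the levels of HP1α KO were 4.02, 4.25 and 4.17 without Treg and 2.21, 3.58 and 3.32 with Treg, the last 2 in excluded libraries.

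In HP1γ WT the smallest p belonged to Icosl, the ligand of the costimulator ICOS, with -0.63 (SE 0.10, edgeR adjusted p = 0.0379), and to Gm30646, near the NF-κB regulator Nfkbid, with -0.59 (SE 0.11, edgeR adjusted p = 0.0437). At Icosl (chr10:77904561-77906280) the levels were 5.09, 5.10 and 5.07 without Treg and 4.41, 4.72 and 4.69 with Treg. The groups did not overlap, but the change was under the fold that counts as a call. In HP1γ KO the calls with the smallest p were Gfpt2, an enzyme of hexosamine synthesis (-1.65, SE 0.23, edgeR adjusted p = 0.000253), and a peak near Gm73113 and Blm (-1.26, SE 0.18, edgeR adjusted p = 0.000316). At Gfpt2 the KO levels went from 4.06, 3.65 and 3.86 to 1.93, 2.53 and 2.12, whereas WT had 4.72, 4.38 and 4.18 without Treg and 3.32, 4.14 and 4.35 with it.

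**Figure D5:**
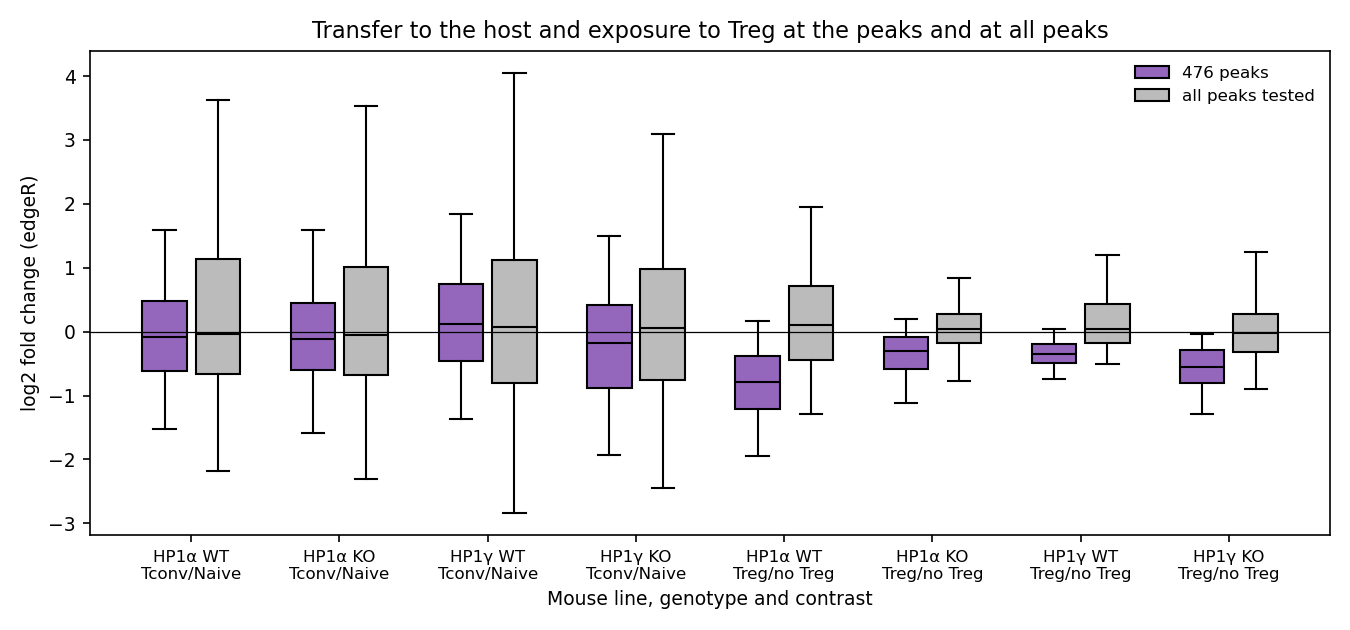
Log2 fold change from edgeR (vertical axis) of Tconv against naive cells (4 left pairs) and of Tconv + Treg against Tconv (4 right pairs) for each line and genotype, at the 476 peaks (purple) and at all peaks tested (grey). Boxes are quartiles with the median, and whiskers run from the 5th to the 95th percentile. After transfer the members' medians lie between -0.17 and 0.13, and with Treg all 4 lie below 0, from -0.79 in HP1α WT to -0.30 in HP1α KO.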

How the data were processed

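The 36 ATAC-seq libraries were analysed from a table of raw read counts for consensus peaks, which the authors deposited without scaling. By the study's methods and processing notes, reads were trimmed (Trim Galore 0.6.7), aligned to GRCm39 (BWA-MEM2), and peaks called in each sample (HMMRATAC) were merged and counted with featureCounts 2.0.3, where a read can fall in several peaks. Of 71512 intervals, 3 without width were left out, and 0 per-sample columns were unused.

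HP1γ (18) and kept HP1α (15) libraries were fitted apart in edgeR 4.0.16 under R 4.3.3, by quasi-likelihood with filterByExpr, TMM and two-sided p-values adjusted over all peaks by Benjamini-Hochberg. A call needed a log2 change beyond 1 in size at an adjusted p below 0.05. The code was tested on simulated data. Depth was 1.49 to 96.8 M reads in peaks and was lowest in a HP1α library with Treg.

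Members and lists were chosen with earlier results of these data known. Named peaks were the 10 with the largest averaged difference, the 3 most open, up to 5 members per list, the 2 smallest p in each direction per comparison, genes and runs with 3 members or more, and the 3 on either side of the threshold, of which 1 is not reported here. Other named peaks, among them further calls, were chosen after their values were seen.

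Same-numbered libraries deviated together (every correlation over 0.1) in HP1α naive cells, KO and WT (0.25 to 0.51), in HP1γ cells under Treg, KO and WT (0.15 to 0.32), and in HP1γ WT Tconv, with Treg and alone (0.20 to 0.29). The meaning of a number is not given in the labels. Alternatives were library size, GC offsets, no filter, fits of the compared groups only, the replicate block, all HP1α libraries, DESeq2 1.42.0 and leaving out each library. Chosen after seeing the data were the covariates log2 depth and TSS share, the quasi-likelihood estimate of edgeR 3, and the comparisons of HP1α Tconv under Treg with those alone.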

Additional observations from a re-analysis of the deposited data

Results flagged for a closer look

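At 69 of the 476 members (14.5%, against 6.72% of all peaks) every HP1α KO library with Treg lay above every HP1α WT library. At all 476 every HP1γ KO library with Treg lay below every HP1γ WT library, as the rule requires. The 69 stand out because HP1α KO moved against the direction by which the rule chose the members. The difference between the lines was not tested, the HP1γ direction is set by the rule, and 3 of the 6 HP1α libraries are those that the study left out.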

How the results depend on the processing

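Of 133 alternative counts of called members in 14 comparisons, 108 stayed within 1.5 times the reported count, as did 60 of 76 that left out a library. A count of 0 that stayed at 0 was taken as unchanged. This was so under every alternative for HP1α KO against WT in naive cells and Tconv, so the tally says less about counts above 0. For HP1α KO against WT with Treg, 5 calls became 10 with library size alone, 15 with the replicate block, 3 with the estimate of edgeR 3, 36 with DESeq2 and 0 with GC offsets, all 18 libraries, log2 depth, TSS share or only the groups compared, and 0 without either WT replicate. For HP1γ KO against WT, the naive count of 0 became 1 and the Tconv count of 75 became 14 with only the groups compared. Leaving out a library gave 32 to 111 in Tconv (without KO replicate 3 and WT replicate 3) and 103 to 229 with Treg (without KO replicate 1 and KO replicate 2), and 0 in naive cells. For Treg exposure, 85 calls in HP1α WT became 24 with GC offsets, 129 with the block, 33 with log2 depth and 143 with DESeq2, and 0 to 101 without a library (0 without WT replicate 1 with Treg, 25 without WT Tconv replicate 1). The 8 in HP1α KO became 20 with the block, 21 with all 18 libraries, 0 with edgeR 3 and 0 with only the groups compared, and 6 to 14 without a library (14 without KO Tconv replicate 1 or replicate 3). The 0 in HP1γ WT became 7 with GC offsets, 3 with the block, 1 with edgeR 3, 9 with TSS share and 4 with DESeq2, and 0 to 11 without a library (11 without WT Tconv replicate 3 or WT replicate 2 with Treg). The 60 in HP1γ KO became 4 with only the groups compared and 15 to 111 without a library (without KO replicate 1 and KO replicate 2 with Treg). The causes were not tested. The activation counts ranged over 110 to 127 in HP1α WT, 107 to 119 in HP1α KO, 132 to 146 in HP1γ WT and 146 to 168 in HP1γ KO without a library. The number of members was 735 with a GC correction and 491 to 940 without a library, 940 without KO Tconv replicate 1, 850 without WT Tconv replicate 3 and 757 without KO Tconv replicate 2. Where same-numbered libraries deviated together, the replicate block changed no other call count by over 1.5 times. WT replicate 2 of HP1α with Treg, at 1.49 M reads, held 0 reads at 30 members.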
